A study of Mus musculus with 10 samples.

Results

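A set of 9 genes of osteoclast differentiation and bone resorption, *Acp5*, *Ctsk*, *Calcr*, *Ocstamp*, *Dcstamp*, *Atp6v0d2*, *Oscar*, *Tnfrsf11a* and *Nfatc1*, were followed across RNA-seq libraries of the mouse anterior fontanelle (AF). They were taken by symbol from the deposited count table, and all 9 of them were present among its 23080 genes and among the 16267 genes that passed the filter on low counts. The libraries came from the excised AF at E18.5 (embryonic days), where the fibrous gap between the frontal bones still lies open. By the study's methods, the excised piece held bone as well as connective tissue of the suture, without skin or brain. The share of bone in each piece is not given. There were 5 libraries with the genotype WT, called control-labelled here, and 5 with the genotype *Wnt1-Cre; Fgfr2fl/fl*, a neural crest cell (NCC) deletion of the FGF receptor gene *Fgfr2*, called mutant-labelled here. *Wnt1-Cre* recombines the floxed allele in neural crest-derived mesenchyme and not in cells of blood origin, and no agent was given to either group. The study asked which transcripts differ when the receptor is lost from this mesenchyme. The study's text calls the controls littermates of the mutants, but no source used here says which libraries shared a litter. Nothing in the labels says that each library came from its own embryo, so p-values measure the spread between these libraries and take no account of shared litters.

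Osteoclasts are multinucleated cells that dissolve bone, and they form by fusion of precursors of the monocyte and macrophage lineage. The cytokines RANKL and M-CSF, made largely by osteoblasts, osteocytes and stromal cells, drive this step: RANKL binds RANK on the precursor, and RANK signaling together with co-stimulatory receptors switches on the transcription factor NFATc1. The mature cell seals off a patch of bone, pumps acid into it through a vacuolar proton pump and releases proteases, and in the skull such cells remodel the bone plates while the sutures and fontanelles take shape.

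The libraries held 20774645 to 28515403 rounded counts each, of which ribosomal RNA genes took 18.7% to 33.6%. Values are given in CPM, a gene's count relative to the size of its library, scaled between libraries by TMM factors of 0.900 to 1.13. Counts of *Fgfr2* over the whole gene ran from 176 to 235 CPM in the control-labelled and from 273 to 357 CPM in the mutant-labelled libraries, a log2 fold change of 0.67 ± 0.090 (SE, n = 5 per group), with an adjusted p of 0.0487 by edgeR's quasi-likelihood test with Benjamini-Hochberg adjustment. That is opposite to the label. The direction held but the call was lost, at adjusted p-values of 0.0831 to 0.260 by edgeR, when any library other than control-labelled replicate 2 or mutant-labelled replicate 2 was left out. By DESeq2 its adjusted p was 4e-10 and by limma voom 0.00966. A gene total includes exons outside a floxed segment and cells that carry no Cre, so it does not check the deletion, and every direction below is between libraries as labelled. The tissue markers were present: all 16 genes of an osteoblast list and all 6 of a tendon and ligament list passed the filter. In the mutant-labelled libraries 16 of the 16 osteoblast genes had a negative log2 fold change, and 5 of the 6 tendon and ligament genes a positive one. Among the latter were *Tnmd* (0.58) and *Matn4* (0.64), each with an exact permutation p of 0.00794 (adjusted p = 0.326 and 0.184 by edgeR). In both genes the groups did not overlap, as was so for 1.48% of all genes tested.

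The 9 genes lie on separate chromosomes in GRCm38. *Acp5*, which encodes tartrate-resistant acid phosphatase, lies on chr9:22126727-22135711 on the minus strand, and it is the only one that shares exon bases with another gene, *6530413G14Rik* on the plus strand, so its counts are uncertain to that extent, as use of strand in counting is not given in the sources used here. *Ctsk* (cathepsin K) lies on chr3:95499256-95509362, *Calcr* (the calcitonin receptor) on chr6:3685680-3764714, *Ocstamp* on chr2:165393760-165400405 and *Dcstamp* on chr15:39745930-39760938. *Atp6v0d2* (a proton pump subunit) lies on chr4:19876841-19922605, *Oscar* (an immunoglobulin-like receptor) on chr7:3609813-3616157, *Tnfrsf11a* (RANK) on chr1:105780718-105847981 and *Nfatc1* on chr18:80606205-80713071. Each count covers the exons of the whole gene, untranslated regions included, and isoforms were not separated.

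Levels between genes were compared per kilobase of exon, as CPM per kb over the control-labelled libraries (mean ± SD, n = 5). The highest level by far was that of *Acp5*, at 385 ± 81.8 CPM per kb, followed by *Ctsk* at 198 ± 22.5 and *Atp6v0d2* at 40.04 ± 9.24. *Nfatc1* came next at 21.2 ± 1.94 and *Oscar* at 11.1 ± 2.83. The products of the resorbing cell, the phosphatase and the protease, stood above the regulator and the receptors. The pair of fusion genes was lower, with *Ocstamp* at 5.69 ± 1.01 and *Dcstamp* at 4.99 ± 1.23 CPM per kb, and the receptors *Tnfrsf11a* and *Calcr* were lowest, at 3.04 ± 0.303 and 2.88 ± 0.870. Within every one of the 10 libraries the order from *Acp5* down to *Ocstamp* held. The ranges of *Ocstamp* and *Dcstamp* overlapped in both groups, and those of *Tnfrsf11a* and *Calcr* overlapped in the control-labelled libraries but not in the mutant-labelled ones, so neither pair has a fixed order in controls.

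Promoter windows from RefSeq (GRCm38.p6) were on hand for 5 of the 9 genes, as 8 windows since *Acp5* has 3 start sites and *Calcr* has 2. *Ocstamp*, *Dcstamp*, *Atp6v0d2* and *Nfatc1* had no window searched. The 250 bases before the start site were searched on both strands for 4 motifs of factors known from osteoclast gene control: the NFAT core GGAAA, the AP-1 site TGANTCA, the PU.1 core GAGGAA and the MITF E-box CATGTG. The PU.1 core with a further A at its end also holds the NFAT core. Of 32807 windows of the same length in the whole table, 55.6% held the NFAT core, 6.75% the AP-1 site, 23.3% the PU.1 core and 12.3% the E-box. The windows of *Oscar*, of the outermost start of *Acp5* and of *Ctsk* are shown because *Acp5* and *Oscar* were the most tightly correlated pair across libraries and *Ctsk* the least correlated gene (below). They lie at chr7:3616158-3616407 (minus strand), chr9:22135747-22135996 (minus strand) and chr3:95498960-95499209 (plus strand), and are written 5′ to 3′ in the direction of the gene, with matches in capitals, where a match on the opposite strand appears as its reverse complement.
Oscar: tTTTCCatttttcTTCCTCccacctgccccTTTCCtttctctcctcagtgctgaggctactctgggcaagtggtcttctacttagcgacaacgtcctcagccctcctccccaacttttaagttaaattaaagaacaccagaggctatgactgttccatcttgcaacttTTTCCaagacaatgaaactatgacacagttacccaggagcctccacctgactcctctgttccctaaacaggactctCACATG
Acp5: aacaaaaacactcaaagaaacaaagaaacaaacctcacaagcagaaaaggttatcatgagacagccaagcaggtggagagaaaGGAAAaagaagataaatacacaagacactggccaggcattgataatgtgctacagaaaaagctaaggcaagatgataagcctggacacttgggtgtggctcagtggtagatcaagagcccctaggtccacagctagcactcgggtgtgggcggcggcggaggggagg
Ctsk: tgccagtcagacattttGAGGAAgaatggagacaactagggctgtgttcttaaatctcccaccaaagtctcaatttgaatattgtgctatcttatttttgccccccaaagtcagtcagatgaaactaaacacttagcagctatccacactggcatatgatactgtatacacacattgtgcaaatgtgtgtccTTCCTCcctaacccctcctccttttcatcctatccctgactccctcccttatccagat
The *Oscar* window held 3 NFAT cores, 1 PU.1 core and 1 E-box, the *Acp5* window 1 NFAT core, and the *Ctsk* window 2 PU.1 cores. Of the other windows, the innermost of *Acp5* held 2 NFAT cores and 1 E-box, the middle one of *Acp5* and one of *Calcr* held 1 NFAT core each, and the remaining *Calcr* window and that of *Tnfrsf11a* held none of the motifs. No AP-1 site of these letters was in any of the 8 windows. A match describes the letters only, and the NFAT core is in the majority of all windows.

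No member differed between the groups past the adjusted threshold. By edgeR's quasi-likelihood test with Benjamini-Hochberg adjustment over all genes, 0 of the 9 genes had an adjusted p under 0.05, against 0.0184% of all genes tested (3 genes), and DESeq2's Wald test and limma voom also called 0. At an unadjusted p under 0.05, 1 member was lower in the mutant-labelled libraries, *Calcr*, and 0 were higher, where 3.82% of all genes were lower and 3.68% higher. In 0 of the 9 genes were the groups without overlap, against 1.48% of all genes. The log2 fold change, mutant over control, was negative in 8 of the 9 genes and positive in *Ctsk*, with a median of -0.15 beside 0.00073 over all genes, of which 49.7% were negative. The 9 genes varied together between libraries (below), so their 8 shared signs do not count as 8 separate observations. In bulk tissue, fewer osteoclasts and less RNA of these genes per osteoclast cannot be told apart.

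**Figure D1:**
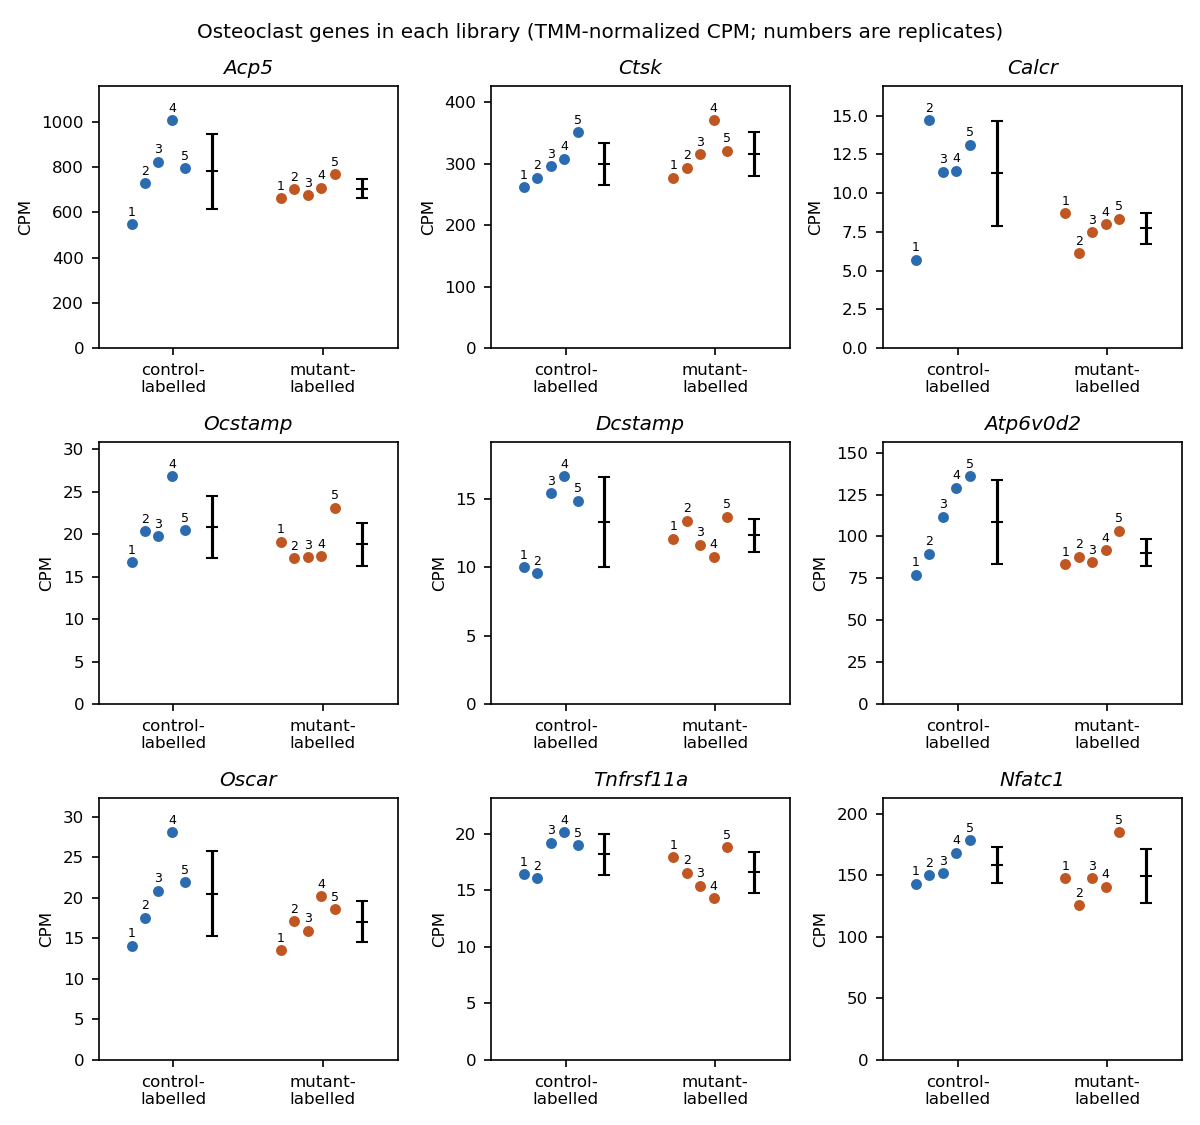
TMM-normalized CPM of each of the 9 genes in every library (y axes from 0). Points are libraries with their replicate numbers, and black bars are the mean ± SD of the 5 libraries of a group. The groups overlap in every panel, and control-labelled replicate 1 lies at or near the bottom in most of them.

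Among receptors, RANK is where osteoclast formation starts. Its gene *Tnfrsf11a* stood at 16.5, 16.1, 19.2, 20.1 and 19.0 CPM in control-labelled replicates 1 to 5, and at 17.9, 16.6, 15.4, 14.3 and 18.8 CPM in mutant-labelled replicates 1 to 5. The groups overlapped over most of their range. Its log2 fold change was -0.13 ± 0.092 (SE), with a 95% interval of -0.33 to 0.071 and an adjusted p of 0.776 by edgeR.

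*Oscar* encodes a co-stimulatory receptor that signals through the adaptor FcRγ. It stood at 14.1, 17.6, 20.9, 28.1 and 21.9 CPM in the control-labelled libraries, and at 13.6, 17.1, 15.9, 20.2 and 18.6 CPM in the mutant-labelled ones, replicates 1 to 5 in each case. Control-labelled replicate 4 was the highest of all 10, and the lowest library of each group lay within 1 CPM of the other. Between groups the log2 fold change was -0.26 ± 0.17, with an interval of -0.63 to 0.099 and an adjusted p of 0.741 by edgeR.

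*Calcr*, the receptor through which calcitonin holds back resorption and a marker of the mature osteoclast, had the largest difference of the 9. Its levels were 5.71, 14.7, 11.4, 11.4 and 13.1 CPM in control-labelled replicates 1 to 5, against 8.73, 6.12, 7.49, 8.00 and 8.35 CPM in mutant-labelled replicates 1 to 5. Thus 4 of the control-labelled libraries lay above every mutant-labelled one, while replicate 1 lay below them all. The group means were 11.3 ± 3.40 and 7.74 ± 1.01 CPM (SD, n = 5 each), and the log2 fold change was -0.54 ± 0.21 (95% interval -1.0 to -0.088). Its p was 0.0235 before and 0.631 after adjustment by edgeR, and 0.111 by the two-sided exact permutation test over all groupings of the libraries, whose smallest possible p is 0.00794. *Calcr* had the fewest counts of the 9, from 154 to 429 per library, which gives a counting error of 8.06% at the lowest against a spread of 30.2% between the control-labelled libraries.

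The log2 fold change of *Calcr* stayed between -0.71 and -0.42 whichever library was left out, but its p depended on single libraries. Without control-labelled replicate 1 its unadjusted p was 0.000127 and its adjusted p 0.246 by edgeR, and *Acp5*, *Atp6v0d2* and *Oscar* then also had an unadjusted p under 0.05, which makes 4 members. The share of all genes under that p without this library is not given here, so the count is a description. Without control-labelled replicate 2 the unadjusted p of *Calcr* was 0.0715, without control-labelled replicate 5 it was 0.0586, and without mutant-labelled replicate 2 it was 0.0548, all by edgeR. Over all 19 settings tried, the unadjusted p was under 0.05 in 14.

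*Nfatc1* encodes the factor that turns on the late osteoclast genes. Control-labelled replicates 1 to 5 stood at 143, 150, 152, 168 and 178 CPM, and mutant-labelled replicates at 148, 126, 148, 141 and 185.2 CPM. Both the lowest and the highest of the 10 libraries were mutant-labelled. The log2 fold change of -0.084 ± 0.098 (interval -0.30 to 0.13) had an adjusted p of 0.879 by edgeR, and NFATc1 also acts in lymphocytes and endothelium, so its counts need not come from osteoclasts alone.

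The fusion genes encode membrane proteins that mononuclear precursors need in order to join. *Dcstamp* stood at 10.01, 9.57, 15.4, 16.6 and 14.8 CPM in control-labelled replicates 1 to 5 and at 12.1, 13.4, 11.6, 10.8 and 13.7 CPM in mutant-labelled ones. All of its mutant-labelled values fell inside the control range, which had a pair of low and a trio of high libraries. *Ocstamp* stood at 16.7, 20.3, 19.8, 26.8 and 20.5 CPM in control-labelled replicates 1 to 5 and at 19.1, 17.1, 17.2, 17.4 and 23.1 CPM in mutant-labelled ones, again all inside the control range. Their log2 fold changes were -0.11 ± 0.16 (interval -0.45 to 0.23) and -0.15 ± 0.12 (interval -0.42 to 0.12), with adjusted p-values of 0.910 and 0.816 by edgeR.

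The acid pump and the secreted enzymes make up the resorbing end of the pathway. *Atp6v0d2*, the osteoclast-enriched d2 subunit of the vacuolar proton pump, stood at 77.2, 89.8, 112, 129 and 136 CPM in control-labelled replicates 1 to 5 and at 83.4, 88.0, 84.7, 91.6 and 103 CPM in mutant-labelled ones. The top 3 control-labelled libraries lay above every mutant-labelled one, and control-labelled replicate 1 was the lowest of all 10. Its log2 fold change was -0.27 ± 0.14, with an interval of -0.58 to 0.038 and p-values of 0.0804 before and 0.683 after adjustment by edgeR.

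*Acp5* was the most abundant of the 9. Its levels were 549, 731, 825, 1008 and 797 CPM in control-labelled replicates 1 to 5 and 662, 704, 675, 709 and 770 CPM in mutant-labelled ones. All mutant-labelled values lay within the control range, which spanned 1.84-fold against 1.16-fold. The log2 fold change was -0.15 ± 0.13 (interval -0.44 to 0.13), and the adjusted p was 0.826 by edgeR.

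*Ctsk*, the collagen-degrading protease, stood at 262, 277, 297, 308 and 351 CPM in control-labelled replicates 1 to 5 and at 278, 294, 316, 371 and 321 CPM in mutant-labelled ones. It was the only member with a higher mean in the mutant-labelled libraries, and the groups overlapped over most of their range. For *Ctsk* the log2 fold change was 0.080 ± 0.094 (interval -0.13 to 0.29), with an adjusted p of 0.881 by edgeR. The intervals of the 9 genes put the bounds within which a change could have gone unseen, the widest for *Calcr* and the narrowest for *Tnfrsf11a* and *Ctsk*.

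Single libraries set much of the size of these differences, though in no case their sign. Without control-labelled replicate 4, the log2 fold change was -0.043 for *Acp5*, -0.040 for *Ocstamp*, -0.014 for *Dcstamp* and -0.12 for *Oscar*. Without control-labelled replicate 1, that of *Acp5* was -0.25 and that of *Dcstamp* -0.19. Over all libraries left out in turn, *Atp6v0d2* ran from -0.36 to -0.17, *Tnfrsf11a* from -0.18 to -0.073, *Nfatc1* from -0.17 to -0.022 and *Ctsk* from 0.024 to 0.15. *Atp6v0d2* came nearest to 0 without control-labelled replicate 5, *Nfatc1* without mutant-labelled replicate 2, and *Tnfrsf11a* and *Ctsk* without mutant-labelled replicate 4.

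**Figure D2:**
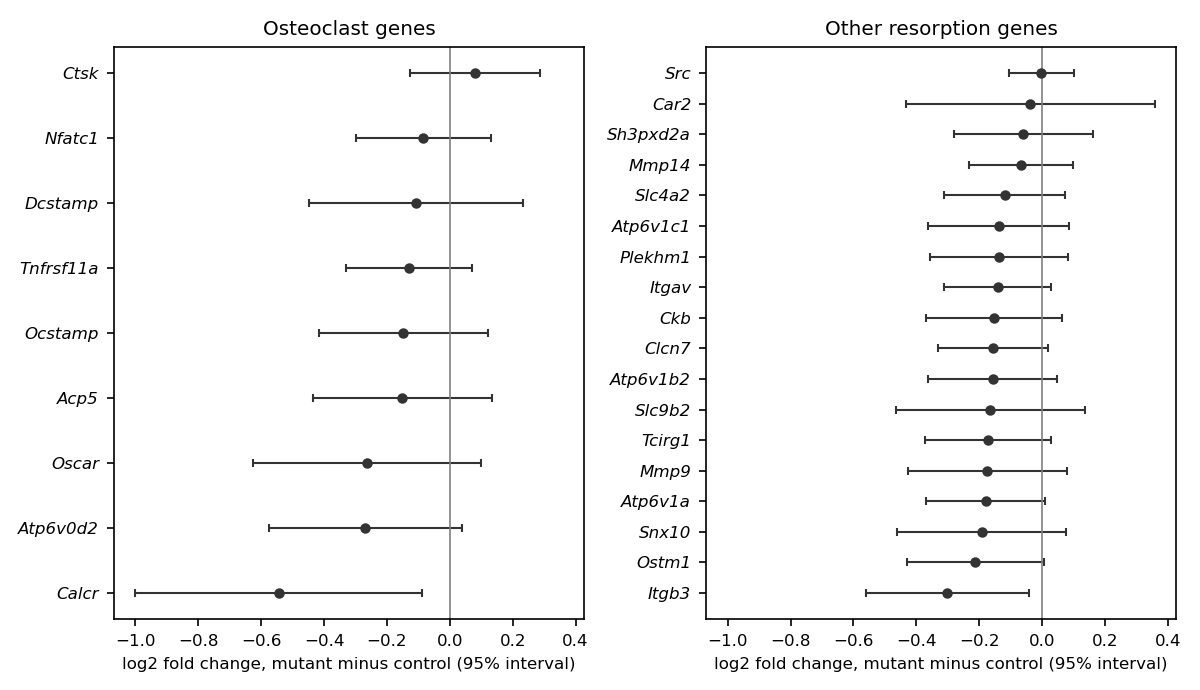
Log2 fold change, mutant-labelled over control-labelled, with its 95% interval from edgeR's quasi-likelihood fit, for the 9 osteoclast genes (left) and for 18 other genes of bone resorption (right). The grey line marks no difference. *Calcr* on the left and *Itgb3* on the right are the genes whose interval does not include 0.

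For most of the 9 genes the spread between libraries was larger among controls. The SD of log2 CPM was larger in the control-labelled group for 7 of the 9 genes, against 39.5% of all genes tested. Since the 9 genes varied together between libraries (below), these 7 do not count as 7 separate observations. *Calcr* spanned 2.58-fold across control-labelled and 1.43-fold across mutant-labelled libraries, and *Atp6v0d2* spanned 1.76-fold and 1.24-fold. *Tnfrsf11a* and *Nfatc1* were the exceptions. Without control-labelled replicate 1, chosen after the values were seen, 5 of the 9 genes still had the larger SD in controls, against 39.3% of all genes.

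Levels of the 9 genes varied together from library to library. To show this, the log2 CPM of each gene was standardized over the 10 libraries and averaged over the 9 genes. Control-labelled replicate 4 was highest at 1.33, with all 9 genes above their own means, followed by control-labelled replicate 5 at 0.98, also with 9, and mutant-labelled replicate 5 at 0.53, with 8. Control-labelled replicate 1 was lowest at -1.16, with 0 of the 9 genes above their means. The remaining mutant-labelled libraries lay between -0.31 and -0.60, below control-labelled replicate 3 at 0.49 and replicate 2 at -0.24. The control-labelled group thus held the 2 highest libraries and the lowest one. Over the 10 libraries this mean had r = -0.26 with the total count, -0.14 with the ribosomal RNA share and -0.0054 with the TMM factor.

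All but 1 of the 36 pairs of genes were positively correlated across the 10 libraries in log2 CPM. The median Pearson r was 0.63, from -0.11 to 0.91, and 9 pairs had an adjusted p under 0.05 over the 36 pairs by a permutation test with 100000 resamples. When the mean of each group was subtracted, the median r was 0.61, all 36 pairs were positive, and 7 had an adjusted p under 0.05. Without the 2 libraries farthest from the median of the gene on the x axis, r ranged from 0.11 to 0.87 with a median of 0.61. The number of pairs past the threshold depended on single libraries: it was 5 without control-labelled replicate 1, 15 without replicate 2, 4 without replicate 3 and 3 without replicate 4, while the median r stayed between 0.54 and 0.71 whichever library was left out.

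The tightest pair was *Acp5* and *Oscar*, an enzyme and a receptor, with r = 0.913 (permutation p = 0.00022, adjusted 0.0054) and Spearman's rho = 0.939 (permutation p = 0.00018, adjusted 0.00216). Their r was 0.842 without control-labelled replicates 1 and 4 and 0.909 within groups. *Acp5* and *Atp6v0d2* had r = 0.864 and rho = 0.952, and r = 0.873 without the same libraries. *Atp6v0d2* and *Oscar* had r = 0.880. Thus the 3 genes of pump, phosphatase and co-receptor varied in step across libraries of both labels.

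The fusion genes were each tied to *Acp5*, with r = 0.841 for *Ocstamp* and 0.785 for *Dcstamp*. Between themselves they had r = 0.622, with a permutation p of 0.0538 and an adjusted p of 0.102. *Dcstamp* was most like the RANK gene *Tnfrsf11a*, with r = 0.816, and *Ocstamp* was also paired with *Nfatc1*, with r = 0.759. *Calcr* had a median r of 0.55 with the other 8 genes and 0 pairs past the adjusted threshold.

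**Figure D3:**
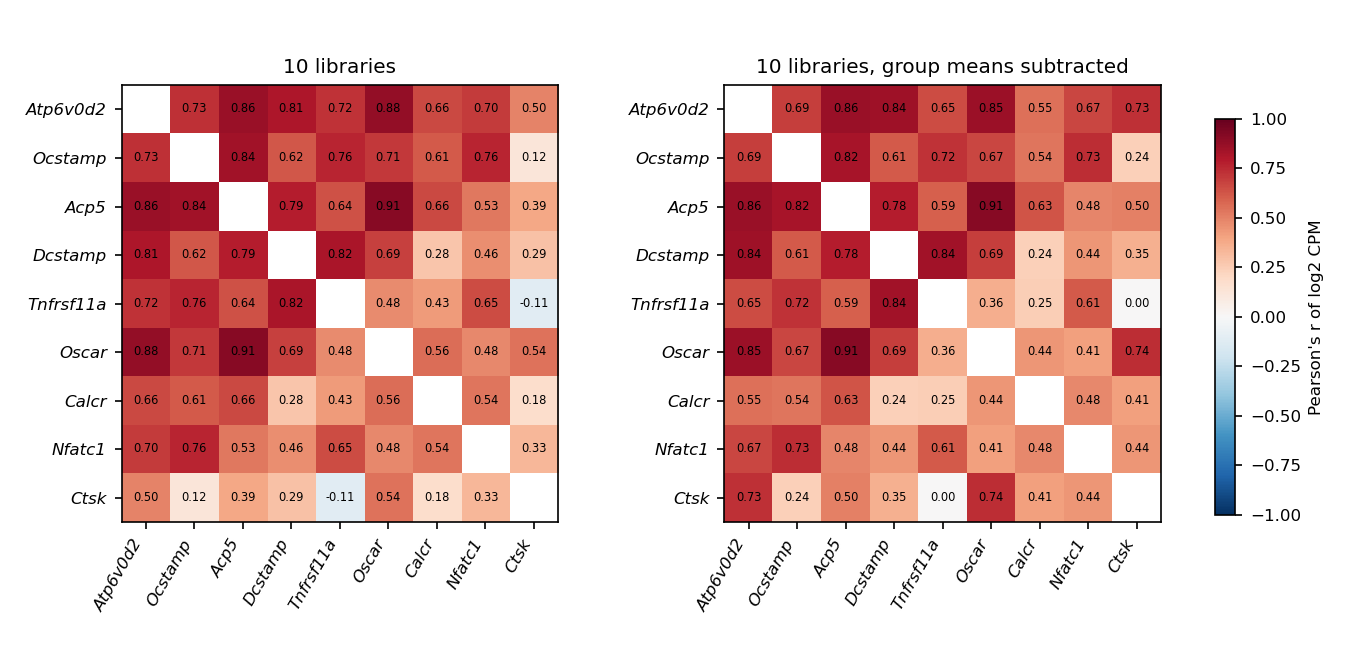
Pearson's r of log2 CPM between each pair of the 9 genes over 10 libraries (left) and after subtracting each group's mean (right), with genes ordered by their median r. The block of high values runs from *Atp6v0d2* to *Oscar*, and the *Ctsk* row is the palest.

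*Ctsk* had the lowest median r with the other 8 genes. That median was 0.31, from -0.11 with *Tnfrsf11a* to 0.54 with *Oscar*, and 0 of its 8 pairs passed the adjusted threshold. Without mutant-labelled replicate 4 all 36 pairs of members were positive, the lowest at r = 0.25. In the control-labelled group alone *Ctsk* had r from 0.471 with *Ocstamp* to 0.955 with *Nfatc1*. In the mutant-labelled group alone *Ctsk* had r from -0.655 with *Tnfrsf11a* to 0.866 with *Oscar*. Over all 10 libraries *Ctsk* and *Acp5* had r = 0.387 (permutation p = 0.270, adjusted 0.324) and rho = 0.442, and r = 0.504 within groups. With group means subtracted *Ctsk* had r = 0.740 with *Oscar* and 0.730 with *Atp6v0d2*, and its median of 0.42 was close to those of *Calcr* at 0.46 and *Nfatc1* at 0.48, each of the 3 with 0 pairs past the adjusted threshold. The *Ctsk* to *Acp5* ratio of CPM ran from 0.306 to 0.478 in the control-labelled and from 0.417 to 0.523 in the mutant-labelled libraries. *Ctsk* is also transcribed in fibroblasts and osteogenic cells, and the part of such cells in its counts was not tested.

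**Figure D4:**
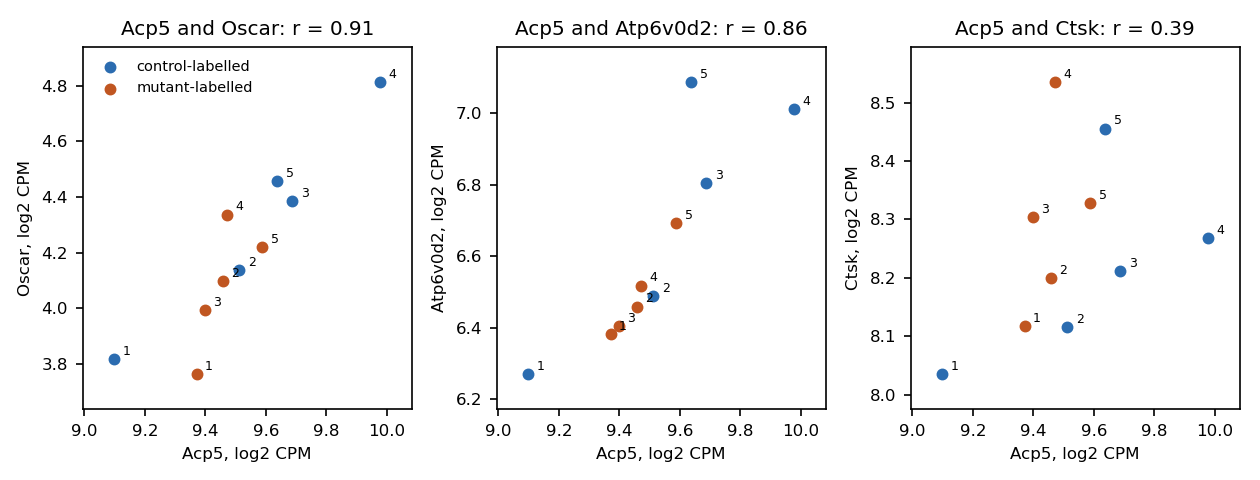
Log2 CPM of *Acp5* (x axis) against *Oscar*, *Atp6v0d2* and *Ctsk* (y axes) in 10 libraries, with replicate numbers. *Oscar* and *Atp6v0d2* follow *Acp5* along a line through both groups (r = 0.913 and 0.864), whereas *Ctsk* scatters (r = 0.387), with mutant-labelled replicate 4 and control-labelled replicate 5 above the rest.

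Other genes of bone resorption were read from a list of 18 that held none of the 9. All 18 had a negative log2 fold change, with a median of -0.15, where 49.7% of all genes tested were negative. Under the other settings and without single libraries, 15 to 18 were negative. The mean of the list varied with that of the 9 genes (below), so these signs do not count as 18 separate observations. None had an adjusted p under 0.05 by edgeR, and 1 had an unadjusted p under 0.05, *Itgb3*, the integrin β3 chain of the osteoclast's attachment ring. *Itgb3* stood at 80.4, 109, 129, 123 and 121 CPM in control-labelled replicates 1 to 5 and at 96.2, 93.5, 75.7, 94.1 and 97.1 CPM in mutant-labelled ones, so that only control-labelled replicate 1 fell among the mutant-labelled values. Its log2 fold change was -0.30 ± 0.12, with p-values of 0.0262 before and 0.634 after adjustment by edgeR and 0.0873 by the exact permutation test. The mean of the 18 genes had r = 0.958 with the mean of the 9 genes across the 10 libraries, and 0.960 with group means subtracted. Within the list, the proton pump subunit genes *Atp6v1a* and *Tcirg1* had r of 0.948 and 0.916 with the mean of the 9, and the gelatinase gene *Mmp9*, the most abundant of the list, had 0.910.

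The 3 most abundant genes of that list did not all follow. *Mmp9* stood at 1633 ± 305 and 1448 ± 77.1 CPM (SD, n = 5 each) with the control and the mutant label, a log2 fold change of -0.17 with an adjusted p of 0.749 by edgeR. *Mmp14* (637 ± 24.7 and 609 ± 60.5 CPM) and *Sh3pxd2a* (600.3 ± 39.6 and 576 ± 86.2 CPM), which mesenchymal cells also express, had r of only 0.313 and 0.015 with the mean of the 9.

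Genes of the receptor pathway were less uniform. Of 12 listed, 11 were tested (*Sirpb1a* was left out for low counts), 8 had a negative and 3 a positive log2 fold change, with a median of -0.053, and 0 had an adjusted or an unadjusted p under 0.05 by edgeR. *Csf1r*, the M-CSF receptor, stood at 216 ± 26.8 and 191 ± 13.9 CPM (log2 fold change -0.18, adjusted p = 0.669 by edgeR), with r = 0.911 with the mean of the 9 genes. The adaptor gene *Tyrobp* stood at 40.1 ± 7.15 and 38.6 ± 2.28 CPM and the kinase gene *Syk* at 27.9 ± 4.92 and 27.1 ± 1.61 CPM, with r of 0.780 and 0.851.

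Of 13 transcription factor genes, 6 had a negative and 7 a positive log2 fold change, with a median of 0.0034, and by edgeR 0 were past the adjusted threshold and 2 had an unadjusted p under 0.05. *Fos*, a partner in the AP-1 factor, had a log2 fold change of -0.65 ± 0.25 (adjusted p = 0.634 by edgeR, exact permutation p = 0.0873), with control-labelled replicate 3 highest at 31.3 CPM and overlapping groups. Without that library it was -0.39, with an adjusted p of 0.804 by edgeR. *Spi1*, which encodes PU.1, had r = 0.963 with the mean of the 9 genes, *Jdp2* (61.3 ± 7.30 and 56.0 ± 4.25 CPM) had 0.707, and *Nfkb1* (51.9 ± 3.13 and 53.1 ± 5.02 CPM) had -0.045.

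The cytokines that drive or block osteoclast formation were read as a list of 4. *Tnfsf11*, the gene of RANKL, stood at 7.75, 6.52, 7.78, 8.91 and 7.02 CPM in control-labelled replicates 1 to 5 and at 5.67, 5.21, 4.75, 4.51 and 5.34 CPM in mutant-labelled ones. All 5 control-labelled libraries lay above all 5 mutant-labelled ones, as was so for 1.48% of all genes in one direction or the other. The log2 fold change was -0.58 ± 0.11, with an adjusted p of 0.184 by edgeR and 0.0051 by DESeq2, and an exact permutation p of 0.00794. Its receptor gene *Tnfrsf11a*, given above, showed no such separation. The RANKL decoy gene *Tnfrsf11b* stood at 6.98 ± 1.40 and 6.82 ± 2.24 CPM and the M-CSF gene *Csf1* at 97.0 ± 13.6 and 89.5 ± 6.96 CPM (SD, n = 5 each). *Il34*, an alternative ligand of the M-CSF receptor, had a log2 fold change of 0.40 ± 0.17 (unadjusted p = 0.042, adjusted p = 0.656 by edgeR), and in it control-labelled replicate 2, at 3.12 CPM, lay among the mutant-labelled values. The mean of these 4 genes had r = 0.119 with the mean of the 9, but it averages opposite signs. Singly, r was 0.626 for *Csf1*, 0.458 for *Tnfsf11*, -0.387 for *Tnfrsf11b* and -0.486 for *Il34*.

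**Figure D5:**
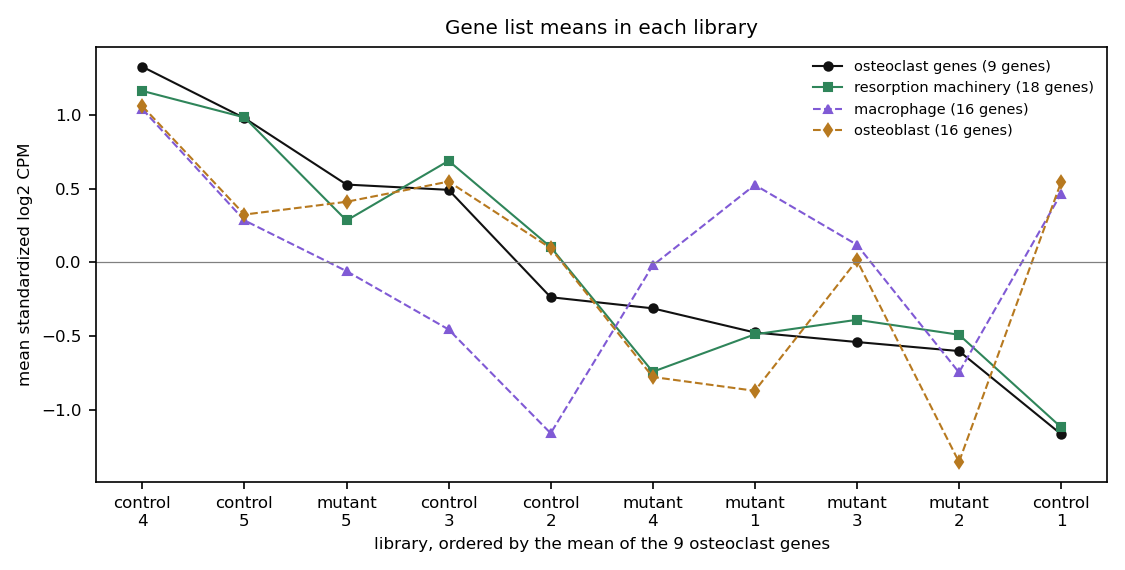
Mean standardized log2 CPM of 4 gene lists in each library, with libraries ordered from left to right by the mean of the 9 osteoclast genes. The resorption list tracks the 9 genes (r = 0.958), and the macrophage and osteoblast lists depart from them, most of all in control-labelled replicate 1.

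Markers of other cells shared this pattern to differing degrees. Closest was a list of 6 pan-leukocyte genes, whose mean had r = 0.691 with the mean of the 9 genes (0.829 within groups), with *Laptm5* highest at 0.964. It summed to 254 to 382 CPM in control-labelled and 279 to 317 CPM in mutant-labelled samples, with 3 negative and 3 positive log2 fold changes. Its gene *Coro1a* had a higher level in all 5 mutant-labelled libraries than in any control-labelled one (log2 fold change 0.49, adjusted p = 0.119 by edgeR, exact permutation p = 0.00794). A list of 16 macrophage genes summed to 336 to 485 CPM in control-labelled and 351 to 475 CPM in mutant-labelled libraries, with none at 0 on average (the lowest, *Timd4*, at 0.388 ± 0.193 CPM in controls), and its mean had r = 0.276 with the mean of the 9 genes. One of its genes, the lysosomal *Cd68*, had r = 0.932. Its only gene at an unadjusted p under 0.05, the lysozyme gene *Lyz2*, was higher in all 5 mutant-labelled libraries than in any control-labelled one (log2 fold change 0.63, adjusted p = 0.336 by edgeR, exact permutation p = 0.00794). A list of 8 neutrophil genes summed to 33.3 to 95.5 CPM in control-labelled and 102 to 178 CPM in mutant-labelled libraries, without overlap, with 8 of 8 positive log2 fold changes, a median of 0.86 and r = 0.184 (0.680 within groups). All 16 osteoblast genes had a negative log2 fold change, with a median of -0.23 and 9 at an unadjusted p under 0.05 by edgeR, and the mean of the list had r = 0.558 with the 9 genes, with *Spp1* highest at 0.849. The mean of the tendon and ligament list ran against the 9 genes, with r = -0.591 (-0.544 within groups), a median log2 fold change of 0.33 and 4 of its 6 genes higher at an unadjusted p under 0.05, and the chondrocyte, epidermis and neuron lists had r of -0.370, -0.385 and -0.294. No gene of these 8 lists had an adjusted p under 0.05 by edgeR. Of all genes tested, 3.82% were lower and 3.68% higher at an unadjusted p under 0.05 by edgeR, and 1.48% had groups without overlap. The part of these cells in the values of the 9 genes was not tested.

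Among 14469 genes with a mean of at least 1 CPM that are not members, the 10 whose log2 CPM was most correlated with the mean of the 9 over 10 libraries were *Laptm5* (r = 0.964), *Spi1* (0.963), *Gusb* (0.948), *Atp6v1a* (0.948), *Atp6v0e* (0.945), *Slc37a2* (0.945), *Cdk18* (0.944), *Gnptab* (0.941), *Rnasek* (0.939) and *Rac2* (0.936). Each had a negative log2 fold change, from -0.10 for *Atp6v0e* to -0.24 for *Slc37a2*, and the lowest adjusted p among them was 0.659 by edgeR. They were chosen for this likeness out of many genes, so the r values are a description.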

How the data were processed

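RNA was taken from the AF of 5 control-labelled and 5 mutant-labelled E18.5 samples, and the authors made stranded libraries that were read as single reads. The authors deposited a table of estimated counts per gene, not scaled between libraries. Many of its values are not whole numbers, and no gene sums to under 10. The submitters' processing notes name Partek and the build mm10, and the counting tool and its strand setting are not given in the sources used here. Estimated counts were rounded to whole numbers, since the planned test was for counts. The starts and ends of genes were taken from GENCODE M21.

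The counts were fitted over all genes with edgeR 4.0.16 (R 4.3.3): its expression filter kept 16267 genes and left out 6813, and TMM normalization and the quasi-likelihood test with Benjamini-Hochberg adjustment at 0.05 followed, with no covariate. Log2 CPM used a prior count of 0.5. Single values were compared by exact permutation (two-sided, every split of the libraries into 5 and 5), and correlations by 100000 resamples. The steps were tested on simulated counts. Alternatives were DESeq2 1.42.0, limma 3.58.1, other size factors and filters, and leaving out each library. The spread without control-labelled replicate 1 was added after seeing the data.

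The members and gene lists were chosen with earlier results of these data known, and they give no independent support to any pattern. Genes named beyond the 9 are list genes with an unadjusted p under 0.05 or among the 3 highest of their list by CPM, the 4 cytokines, *Fgfr2*, and the 10 most like the members. *Tcirg1*, *Cd68*, *Spp1*, *Timd4*, *Coro1a*, *Lyz2*, *Tnmd* and *Matn4* were named after their values were seen. One gene that this rule selects is not reported here. Depth was 20774645 to 28515403 counts per library, of which 15317722 to 20480153 were left without ribosomal RNA.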

Additional observations from a re-analysis of the deposited data

Results flagged for a closer look

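Groups of 5 libraries were checked for a single value far from the others, by Dixon's ratio of the gap to the range with a critical value of 0.71, for 70 groups of the genes named. Chance marks about 1 group in 20. In 3 groups a library stood out, and in none of these was the gene a member. *Il34* in control-labelled replicate 2 was at 3.12 CPM, where the next highest of its group was at 2.0. *Itgb3* in mutant-labelled replicate 3 was at 75.7 CPM, where the next lowest was at 93.5. *Atp6v0e* in mutant-labelled replicate 5 was at 58.2 CPM, where the next highest was at 47.5. None of the 9 osteoclast genes had such a value in either group, although control-labelled replicate 1 was below the mean of the 10 libraries in all 9.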

How the results depend on the processing

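Each of the 9 genes kept its direction and stayed above the adjusted threshold under all 18 alternatives, and the lowest adjusted p that any of them reached was 0.246, for *Calcr* without control-labelled replicate 1. The median log2 fold change of the 9 lay between -0.21 and -0.061 when single libraries were left out. Other values moved. Members at an unadjusted p under 0.05, 1 as reported, numbered 0 with limma voom and 0 to 4 when single libraries were left out. The share of all genes under that p is not given for these settings or for the replicate block below. Genes past the adjusted threshold, 3 as reported, numbered 98 with DESeq2, 1 with library size alone and 1 to 6 with single libraries left out, and genes of the 4 osteoclast pathway lists numbered 2 with DESeq2 and 0 to 1 with single libraries left out. *Fgfr2* kept its direction under all 18 alternatives and its call with DESeq2, limma voom, DESeq2's size factors, the minimum of 10 counts and without ribosomal RNA genes (adjusted p from 4e-10 to 0.045), but lost the call at a log2 fold change of 0.63 with library size alone (adjusted p = 0.152 by edgeR) and 0.67 with no filter (adjusted p = 0.0557), and it ran from 0.63 to 0.75 without single libraries. Pairs of members past the threshold, 9 as reported, numbered 19 with library size alone and 3 to 15 without single libraries. The replicate numbers did not pair the libraries, with correlations of same-numbered deviations from -0.211 to 0.139. With the replicate number as a block, 2 members (*Atp6v0d2* and *Oscar*) had an unadjusted p under 0.05, 1 gene passed the adjusted threshold, and *Fgfr2* stood at 0.68 (adjusted p = 0.427 by edgeR). The causes were not tested. Counting error limits *Calcr*, *Dcstamp*, *Oscar*, *Ocstamp* and *Tnfrsf11a* most, at 4.98% to 8.06% in the library with the fewest counts.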
